A study of Mus musculus with 6 samples.

Results

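The mature microRNAs of the Mir193b, Mir455 and Mir33 hairpins, mmu-miR-193b-3p, mmu-miR-193b-5p, mmu-miR-455-3p and mmu-miR-33-5p, were followed in C2C12 cells with and without myostatin. They were taken by name, as every row of the 6 deposited library tables that starts with mmu-miR-193b-, mmu-miR-455- or mmu-miR-33-, and they make up 4 of the 49 miRNAs listed in each table. The rule reads names and no measured value, but it was set with earlier results of these data known. C2C12 is an established line of mouse myoblasts, the dividing precursors of skeletal muscle fibres. Small RNA was sequenced from 3 wild-type (WT) libraries and from 3 libraries of knockout cells (MSTN-KO), whose myostatin gene was cut with CRISPR/Cas9. Both groups carry the labels skeletal muscle and myoblasts, and the labels name no drug or other agent. Which libraries belong to which genotype rests on the sample titles alone, since the myostatin transcript was not analysed here. The labels give the strain of all 6 libraries, WT included, as C11, a name that the study's text uses for its knockout cells. Where the study's text gives a direction for miRNAs of this list, it runs opposite to that computed from the titles. The same holds for a separate assay of the study, quantitative PCR. It found higher levels in the knockout cells for both arms of miR-335, for miR-206-3p and for miR-130b-3p, among others. By the titles, these named arms are lower in the MSTN-KO libraries. The groups may therefore be exchanged in the titles or in the text. Which of these holds cannot be told apart here, and every direction below follows the titles and would turn if they were exchanged. Each group is a single cell line as far as the sources tell, and nothing says that its 3 libraries came from separate cultures. The p-values below therefore measure the spread between these libraries, which may be technical.

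MicroRNAs (miRNAs) are processed from the 5p or 3p arm of a hairpin RNA and repress messenger RNAs, mainly by pairing through their seed, bases 2 to 8 from the 5′ end. The miR-193b and miR-365 hairpins form a small cluster that is enriched in brown fat, the heat-producing fat tissue whose precursors share a lineage with muscle, and forced expression of this cluster is known to turn C2C12 myoblasts towards brown adipocytes. miR-455 is likewise known as a promoter of brown fat differentiation. miR-33 lies inside Srebf2, which encodes a master regulator of cholesterol synthesis, and represses the cholesterol exporter Abca1.

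The mature sequences are shown because the seeds tell which of these miRNAs could share targets. They were taken by name from RefSeq (GRCm38.p6), which held 4 of the 4 members and 32 of the 49 listed miRNAs. Seeds shared with the listed miRNAs not found there could not be seen. Each is written 5′ to 3′ with the seed in capitals, and miR-193a-3p, which is not among the listed rows, is added as the closest relative of miR-193b-3p.
mmu-miR-193b-3p: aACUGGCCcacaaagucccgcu
mmu-miR-193b-5p: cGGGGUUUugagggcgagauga
mmu-miR-455-3p: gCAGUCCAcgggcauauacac
mmu-miR-33-5p: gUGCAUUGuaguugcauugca
mmu-miR-193a-3p: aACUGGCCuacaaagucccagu
The 4 members had 4 different seeds. Among the 1679 mature mouse names in the RefSeq table, only the seed of miR-193b-3p occurred in another miRNA, miR-193a-3p. Their sequences differed by C9U, G20A and C21G, with the base of miR-193b-3p first and positions counted from its 5′ end, so that all 3 differences lie outside the seed. The nearest sequence to miR-193b-5p, miR-193a-5p, was 5 edits away, and those nearest to miR-455-3p and miR-33-5p were 7 edits away. The mature lengths were 21 or 22 bases, so RPM values (reads per 1000000 reads of the library) can be set side by side without a length correction, although the efficiency with which each miRNA enters a library is unknown.

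The members come from 3 loci on 3 chromosomes (GRCm38, plus strand). Both miR-193b arms lie on chromosome 16, the 5p arm at chr16:13449533-13449554 and the 3p arm at chr16:13449570-13449591. The hairpin lies outside annotated genes of its own strand and in an intron of the antisense RNA Gm15738 on the opposite strand, and Mir365-1 begins 4238 bases downstream. miR-365 had no row among the listed miRNAs, so its level could not be compared. The hairpin is printed to show how its arms face each other, with both arms in capitals.
Mir193b (chr16:13449523-13449601, plus strand): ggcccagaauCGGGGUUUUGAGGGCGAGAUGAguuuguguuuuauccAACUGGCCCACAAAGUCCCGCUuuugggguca
miR-455-3p lies at chr4:63256904-63256924, in intron 10 of Col27a1, a fibrillar collagen gene whose principal transcript has 61 exons. miR-33-5p lies at chr15:82198127-82198147, in intron 16 of Srebf2, whose principal transcript has 19 exons. Both of these hairpins have the orientation of their host gene. The transcripts of Col27a1 and Srebf2 were not analysed here.

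The library totals ran from 6486776 to 11823489 reads for WT and from 5502214 to 9546040 reads for MSTN-KO. The 49 listed miRNAs held between 0.773% and 3.47% of a library. For all 49 (100%) WT and MSTN-KO values were fully apart, so the list is not an unselected background, and counts and adjusted p-values refer to this selection. A passage of the study's text counts 35 upregulated and 14 downregulated miRNAs past a p-value and fold cut-off. Another passage gives a larger total for the knockout against WT, with more downregulated than upregulated miRNAs. The counts in the text are thus not alike, and they do not all point to a turned direction. By the titles the list holds 14 higher and 35 lower, so it may be the selection of the first passage with the direction turned. The members' own p-values and fold changes would then come from rows chosen on the same contrast. The listed arms of 6 muscle miRNAs (miR-206, miR-1a, miR-133a, miR-133b, miR-499 and miR-486a), 10 in number, summed to between 19023 and 32628 RPM per WT library and between 6334 and 11095 RPM per MSTN-KO library. Most of each sum was miR-206-3p, with means of 24841 RPM for WT and 8479 RPM for MSTN-KO, so the sums say little about the other arms. Of these, miR-486a-5p averaged 300 RPM for WT and 132 RPM for MSTN-KO. Others were scarce in the MSTN-KO group: miR-1a-3p averaged 201 and 6.14 RPM, and miR-499-5p 4.85 and 0.789 RPM. miR-133a-5p was listed at 0 in part of the MSTN-KO libraries. The part of this difference in the results below was not tested. Of the marker names of blood cells (5), endothelium (1), epithelium (5) and liver (1), 0 had a row among the 49 used here, so these cell types could not be checked. Of the brain markers miR-9-3p alone was listed, at 3.85 to 4.37 RPM for WT and 10.4 to 11.8 RPM for MSTN-KO.

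To find how the 4 miRNAs differ between the groups, the MSTN-KO libraries were compared with the WT libraries. All 4 were higher in the libraries labelled MSTN-KO. The mean RPM was 3.85 times as high for miR-193b-3p, 4.20 times for miR-455-3p, 3.80 times for miR-33-5p and 8.02 times for miR-193b-5p. The first 3 of these ratios rest on 30 to 162 WT reads, and that of miR-193b-5p on 4 reads in the whole WT group. With limma and Benjamini-Hochberg adjustment, 4 of 4 members were upregulated at an adjusted p-value under 0.05, against 28.6% of the listed miRNAs. By the cut-offs of a log2 fold change above 1 and an unadjusted p-value under 0.05, 4 of 4 were upregulated, again against 28.6%. With 4 members, and a list whose rows all differ between the groups, these counts describe the members and are no independent support for them. In bulk RNA, more cells with a miRNA and more of it per cell cannot be told apart.

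**Figure D1:**
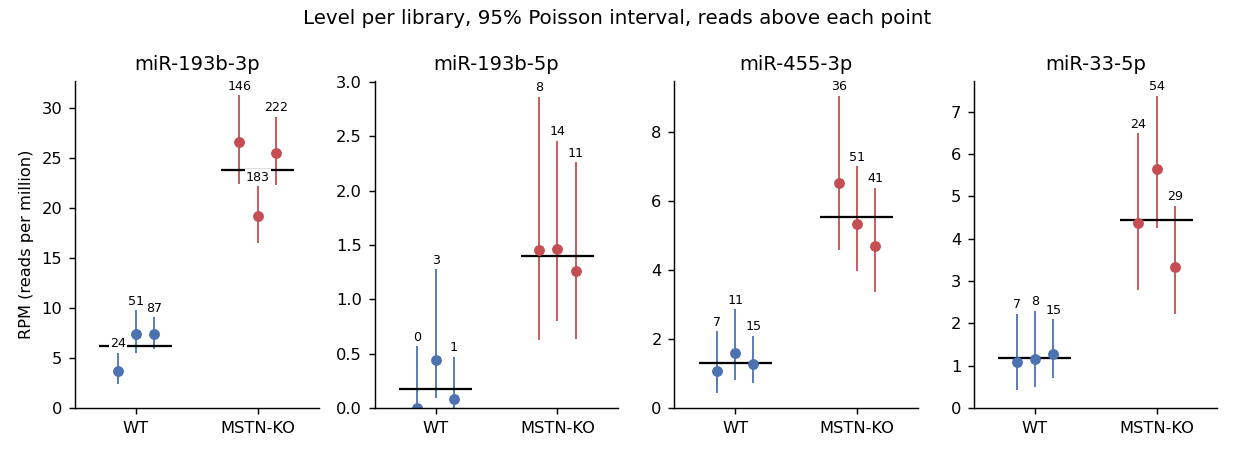
Level of each miRNA in the 3 WT (blue) and 3 MSTN-KO (red) libraries, in RPM on linear axes from 0 with a separate scale per panel, shown in the order of replicates 1 to 3. Points are libraries, vertical lines are 95% Poisson intervals for counting error, horizontal bars are group means, and the numbers are reads; in each panel all 3 MSTN-KO points lie above all 3 WT points.

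miR-193b-3p, the arm of the brown-fat cluster that carries most of its hairpin's reads, was the most abundant member in each library. It stood at 3.70, 7.43 and 7.36 RPM in WT replicates 1 to 3, which correspond to 24, 51 and 87 reads. In MSTN-KO replicates 1 to 3 it stood at 26.5, 19.2 and 25.5 RPM, or 146, 183 and 222 reads. The lowest MSTN-KO library lay above the highest WT library, and WT replicate 1 was the low value of its group. The WT mean was 6.16 ± 2.13 RPM and the MSTN-KO mean 23.7 ± 3.98 RPM (SD, n = 3 each). The log2 fold change, here and below on the log2(RPM + 1) scale, was 1.82 with a standard error of 0.27 and a 95% interval from 1.21 to 2.44 (limma adjusted p = 0.000239). It ranked 38, 31 and 30 among the 49 listed miRNAs in the WT libraries and 11, 15 and 14 in the MSTN-KO libraries. These ranks also depend on the other listed miRNAs, of which 35 were lower in the MSTN-KO group, so they are no separate measure of its rise.

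miR-193b-5p, the other arm of the same hairpin, was at the edge of detection in the WT group. It had 0, 3 and 1 reads in WT replicates 1 to 3, or 0, 0.437 and 0.0846 RPM. In MSTN-KO replicates 1 to 3 it had 8, 14 and 11 reads, or 1.45, 1.47 and 1.26 RPM. The groups did not overlap, and each WT value was at or below the level of 3 reads, which is 0.462 RPM for the 0 in WT replicate 1. The means were 0.174 ± 0.232 RPM and 1.39 ± 0.114 RPM (SD, n = 3 each). The log2 fold change was 1.05 ± 0.21 (SE, 95% interval 0.58 to 1.51, limma adjusted p = 0.000994), the smallest of the 14 rises in the list. By the ratio of the means it ranked first of 49, and by a pseudocount of 0.1 RPM, which gave a log2 fold change of 2.80, it also ranked first. Its place among the rises was therefore set by the value added before the logarithm. The ratio of the means was 5.35 without WT replicate 1, 33.0 without WT replicate 2 and 6.38 without WT replicate 3. Without WT replicate 1 or WT replicate 3 the log2 fold change was 0.94 or 0.997, under the cut-off of 1.

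miR-455-3p, the brown-fat miRNA from the collagen gene, was low in the WT group. Its values were 1.08, 1.60 and 1.27 RPM in WT replicates 1 to 3, from 7, 11 and 15 reads. The MSTN-KO replicates gave 6.54, 5.34 and 4.71 RPM, from 36, 51 and 41 reads. The groups were well apart, the lowest MSTN-KO value standing at 4.71 RPM and the highest WT value at 1.60 RPM. The means were 1.32 ± 0.265 RPM and 5.53 ± 0.932 RPM (SD, n = 3 each). The log2 fold change was 1.49 ± 0.20 (SE, 95% interval 1.04 to 1.95), with the smallest adjusted p-value of the members (limma, 0.000165).

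miR-33-5p, the cholesterol-related miRNA of the Srebf2 intron, had nearly the same WT level as miR-455-3p. It had 1.08, 1.17 and 1.27 RPM in WT replicates 1 to 3, from 7, 8 and 15 reads. It had 4.36, 5.66 and 3.33 RPM in MSTN-KO replicates 1 to 3, from 24, 54 and 29 reads. The groups did not overlap, and the MSTN-KO libraries varied more, with a coefficient of variation of 26.2% against 8.10% in the WT group. The means were 1.17 ± 0.0949 RPM and 4.45 ± 1.17 RPM (SD, n = 3 each). The log2 fold change was 1.31 ± 0.21 (SE, 95% interval 0.83 to 1.79, limma adjusted p = 0.000386).

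Because the members are rare, the reads themselves were compared. Summed over the 3 libraries of a group, miR-193b-3p had 162 WT and 551 MSTN-KO reads, a ratio per library read of 3.60 with an exact 95% interval from 3.02 to 4.32. miR-455-3p had 33 and 128 reads, a ratio of 4.11 (2.78 to 6.22). miR-33-5p had 30 and 107 reads, a ratio of 3.78 (2.50 to 5.87). These 3 intervals overlap broadly, so no difference in the size of the rise between these miRNAs was detectable at this depth. miR-193b-5p had 4 and 33 reads, a ratio of 8.74 whose interval ran from 3.11 to 34.0 and covered the ratios of the other members. The intervals cover counting error only. They leave out the spread between the summed libraries, so that of miR-193b-3p, whose spread exceeds counting error, is too narrow. Without molecular identifiers several reads can also stem from 1 molecule.

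The spread between libraries was compared with what counting alone would give. For miR-193b-3p the variance of the reads around the group rate was 5.08 times the counting variance for WT and 5.65 times for MSTN-KO. For miR-455-3p the same quantity was 0.363 and 1.06. For miR-33-5p it was 0.0659 for WT and 2.75 for MSTN-KO. For miR-193b-5p it was 2.39 for WT, on 4 reads, and 0.0787 for MSTN-KO. With 3 libraries per group these ratios are rough. They place the between-library spread of miR-193b-3p above counting error in both groups, and that of miR-455-3p close to it or below it.

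Both arms of the miR-193b hairpin were listed, which allows a comparison in which the library total cancels. The 3p arm made up 100% of the reads of both arms in WT replicate 1 (24 of 24 reads, 95% Wilson interval 86.2 to 100). It made up 94.4% (84.9 to 98.1) in WT replicate 2 and 98.9% (93.8 to 99.8) in WT replicate 3. The MSTN-KO replicates gave 94.8% (90.1 to 97.3), 92.9% (88.4 to 95.7) and 95.3% (91.7 to 97.3). The groups overlapped, since WT replicate 2 lay among the MSTN-KO libraries. The mean share was 97.8% ± 2.93 for WT and 94.3% ± 1.26 for MSTN-KO (SD, n = 3 each), a difference of -3.44 percentage points. An exact two-sided permutation test gave p = 0.3, in a design that cannot go below 0.1. A change in the balance of the arms was thus not detectable, and the 3p arm was the major arm in all 6 libraries.

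**Figure D2:**
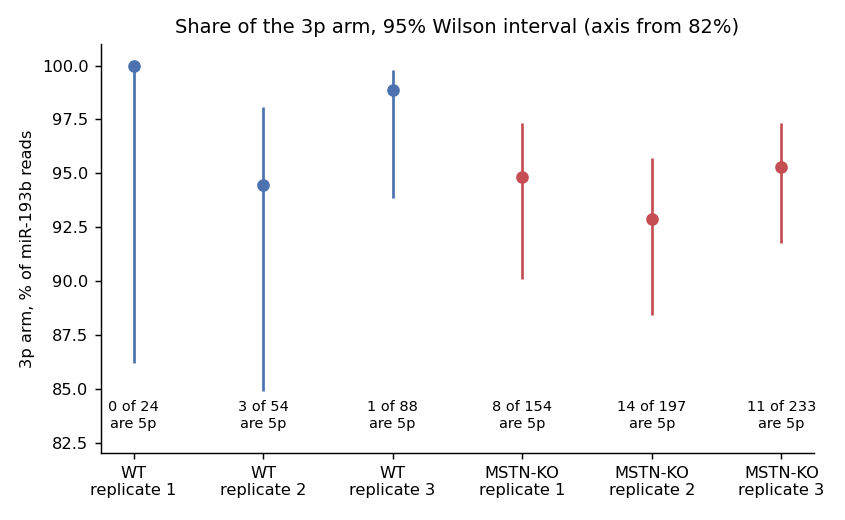
Share of the 3p arm among the reads of both miR-193b arms, in percent, in each library. Vertical lines are 95% Wilson intervals, the axis is cut and does not start at 0, and the text gives how many reads were of the 5p arm; WT replicate 2 lies among the MSTN-KO libraries, at 94.4%.

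Both arms moved in the same direction in 10 of the 10 hairpins with both arms listed, of which 2 were higher in the MSTN-KO group, miR-193b and miR-139, and 8 were lower. For miR-139, the other hairpin with 2 upregulated arms, the ratio of the mean RPM was 4.40 for the 3p arm and 4.52 for the 5p arm. For miR-193b it was 3.85 and 8.02.

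The levels of the members were then set against each other within each library, which again takes out the library total. The order by level was miR-193b-3p, miR-455-3p, miR-33-5p and miR-193b-5p by the mean over the 6 libraries, at 14.9, 3.42, 2.81 and 0.784 RPM. miR-193b-3p made up between 60.6% and 73.7% of the summed RPM of the 4 members. The neighbours miR-455-3p and miR-33-5p did not differ beyond their spread. They had equal reads in WT replicates 1 and 3, and miR-33-5p was the higher of the pair in MSTN-KO replicate 2. The ratio of miR-455-3p to miR-33-5p averaged 1.13 ± 0.217 for WT and 1.29 ± 0.299 for MSTN-KO (SD, n = 3 each).

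The ratio of miR-193b-3p to miR-455-3p, the pair of brown-fat miRNAs, was 3.43, 4.64 and 5.80 in the WT libraries. It was 4.06, 3.59 and 5.41 in the MSTN-KO libraries. The values of the groups were interleaved, with means of 4.62 ± 1.19 and 4.35 ± 0.949. The ratio of miR-193b-3p to miR-33-5p was 5.20 ± 1.56 and 5.71 ± 2.16 and overlapped as well. These ratios were described after the values had been seen and were not tested. The sum of the 4 members was 5.86, 10.6 and 9.98 RPM in the WT libraries and 38.9, 31.6 and 34.8 RPM in the MSTN-KO libraries.

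**Figure D3:**
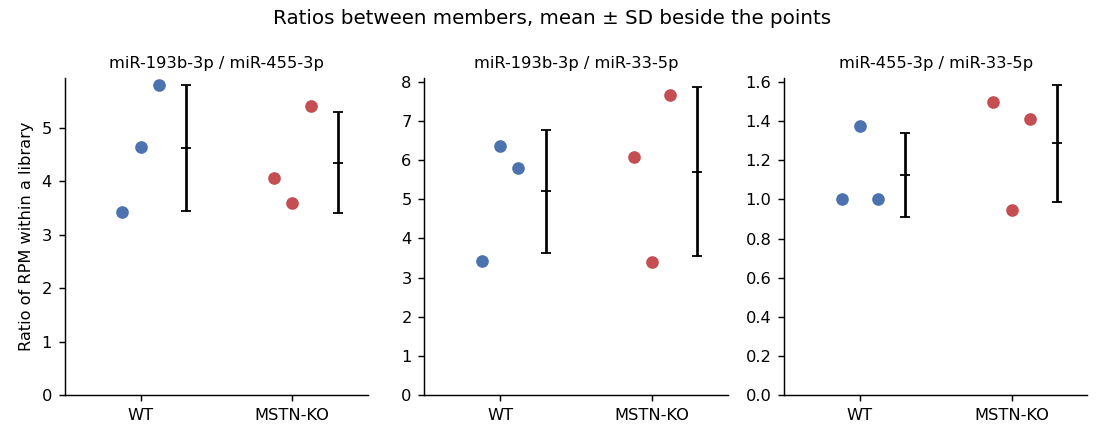
Ratio of the RPM of 2 members within a library, for miR-193b-3p over miR-455-3p, miR-193b-3p over miR-33-5p and miR-455-3p over miR-33-5p, on linear axes from 0. Points are libraries in the order of replicates 1 to 3, bars give the mean and SD of each group; the WT and MSTN-KO points overlap in every panel.

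The members were placed among the other listed miRNAs. By the titles, 14 of the 49 were upregulated and 35 (71.4%) were downregulated at an adjusted p-value under 0.05 (limma), with a median log2 fold change of -1.07. On the authors' RPM scale the members thus lay on the side of the fewer miRNAs, with 10 others. This depends on the scaling: with median of ratios, the listed total or quantile normalization, 14 were upregulated and 12, 10 or 12 downregulated. The upregulated miRNAs ranged from 1.05 to 2.18 on the log2 scale, and among all 49 miR-193b-3p ranked 4, miR-455-3p 6, miR-33-5p 8 and miR-193b-5p 14. These ranks depend on the value added before the logarithm. In the same order they were 7, 6, 8 and 1 by the ratio of the means and with a pseudocount of 0.1 RPM. With 10 RPM they were 5, 11, 12 and 14. By mean level the members ranked 21, 38, 41 and 48, so that all but miR-193b-3p belong to the less abundant part of the list.

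**Figure D4:**
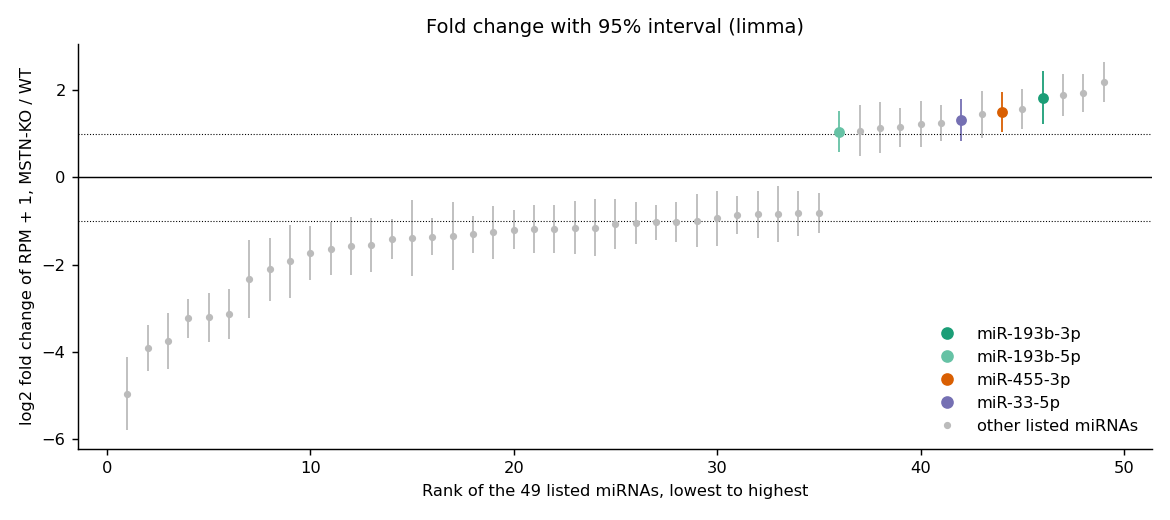
Log2 fold change of RPM + 1, MSTN-KO over WT, of the 49 listed miRNAs ranked from the lowest to the highest, with 95% intervals from limma. The 4 members are coloured and lie among the 14 miRNAs above 0; dotted lines mark the fold cut-off of 1 in either direction.

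The listed miRNAs with the most similar pattern over the 6 libraries were found by the root mean square difference of log2(RPM + 1), after each miRNA was centred on its mean. For miR-193b-3p these were miR-139-3p and miR-139-5p, at 0.295 and 0.321. For miR-455-3p they were miR-9-3p and miR-3105-3p, at 0.200 and 0.254. For miR-33-5p they were miR-383-5p and miR-9-3p, at 0.130 and 0.160, and for miR-193b-5p miR-9-3p and miR-10a-3p, at 0.162 and 0.199. All of these were upregulated. Every listed miRNA separates the groups, so this distance largely follows the direction and size of the group difference. Upregulated neighbours were therefore given by the measure and add no support. Among the members, the closest pair was miR-455-3p and miR-33-5p, at 0.216, and the arms of miR-193b were 0.470 apart, on a scale that compresses the 5p arm because of its few reads.

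The members were set beside other miRNAs known from brown fat. Of a list of 25 brown-fat miRNA names, 4 had listed rows, with 7 arms, and 3 of these arms were the upregulated members. The other 4 arms were those of miR-133a and miR-133b, muscle miRNAs known to restrain brown fat formation by repressing Prdm16, and 4 of 4 were downregulated, against 71.4% of all listed miRNAs. The 4 arms come from closely related hairpins, and nothing particular to the list is read from this count. miR-133b-3p averaged 166 ± 41.2 RPM in WT libraries and 75.3 ± 23.4 RPM in MSTN-KO libraries (SD, n = 3 each), a log2 fold change of -1.15 (limma adjusted p = 0.00365). miR-133a-3p averaged 99.8 ± 36.0 and 39.0 ± 14.0 RPM, with a log2 fold change of -1.34 (limma adjusted p = 0.00394). Reads of miR-133a and miR-133b are uncertain, since their sequences are nearly alike. The median log2 fold change of the 7 arms was -1.15, beside -1.07 over all listed miRNAs. After scaling each library to its listed total it was 0.27, beside 0.157 over all listed miRNAs.

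The list of miRNAs known from lipid metabolism and white fat held miR-33-5p. Of 30 names, 7 had listed rows, with 11 arms, of which 2 were upregulated, against 28.6% of all listed miRNAs, and 9 were downregulated, against 71.4%. Both counts lie near the shares in the whole list. The other upregulated arm was miR-143-5p, from a hairpin known for promoting adipocyte differentiation, at 72.7 ± 18.5 RPM for WT and 195 ± 24.0 RPM for MSTN-KO (SD, n = 3 each). Its log2 fold change was 1.44 (limma adjusted p = 0.000386). The downregulated arms included miR-148a-3p, which represses the LDL receptor and, like miR-33, Abca1. Its means were 401 ± 62.0 and 26.1 ± 6.51 RPM, with a log2 fold change of -3.91 (limma adjusted p = 1.03e-06). By the titles they also included miR-206-3p and miR-1a-3p, which are foremost muscle miRNAs, with log2 fold changes of -1.55 and -4.96, and miR-335-3p and miR-130b-5p, with -3.23 and -3.76. The median of the 11 arms was -1.93, beside -1.07 over all listed miRNAs.

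The rises of the members were recomputed under other settings. Each member kept its direction and an adjusted p-value under 0.05 (limma) in each fit in which it was present, 57 of 57 values. The largest adjusted p-value (limma) was 0.0323, for miR-193b-5p with a pseudocount of 10 RPM. All 49 listed miRNAs had groups fully apart, so these kept calls were largely fixed by the selection of the list and add no support. Keeping all values changed nothing, since all 49 passed the filter. That pseudocount left log2 fold changes of 0.16 for miR-193b-5p, 0.37 for miR-33-5p and 0.46 for miR-455-3p, under the fold cut-off, and 1.06 for miR-193b-3p. Scaling to the summed listed RPM gave ratios of 10.6 for miR-193b-3p, 25.7 for miR-193b-5p, 11.8 for miR-455-3p and 10.02 for miR-33-5p. That scaling moved the median of all listed miRNAs up by 1.23 on the log2 scale. Median-of-ratios scaling and quantile normalization moved it up by 0.99 and 0.92. A kept direction under these rescalings is thus no test of the rises.

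**Figure D5:**
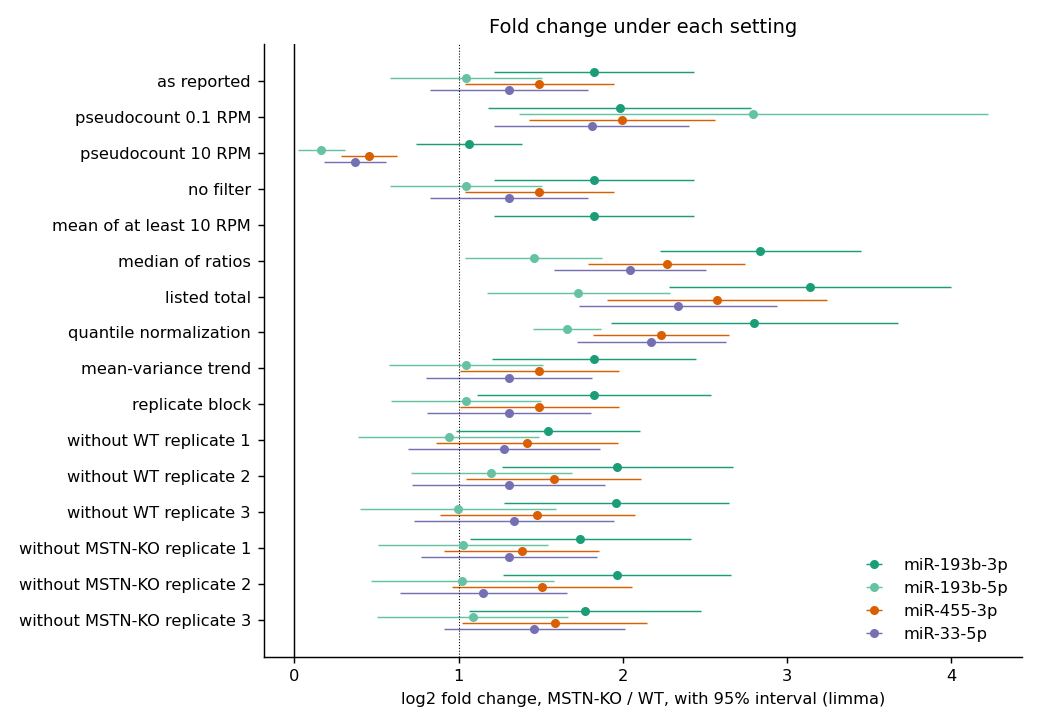
Log2 fold change of each member, MSTN-KO over WT, with its 95% interval from limma, as reported and under each other setting. The dotted line marks the fold cut-off of 1; the points lie above 0 throughout, and only miR-193b-3p stays above 1 with a pseudocount of 10 RPM.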

How the data were processed

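Small RNA from 3 WT and 3 MSTN-KO libraries was read on an Illumina HiSeq instrument. The authors deposited RPM, with 1 value per miRNA and library and 49 miRNAs per table. Their processing notes name Bowtie 0.12.2 and the genome build mm8, and the catalogue, the counting tool and the reads that entered the total are not given in the sources used here. The article speaks of FPKM, but 100% of the deposited values above 0 were whole multiples (within 0.01) of a step shared by all miRNAs of a library, so no length scaling entered. The step, 0.0846 to 0.182 RPM, was taken as 1 read, and 3 reads correspond to 0.254 to 0.545 RPM. The files held too few values for a count model on these reads.

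Groups and replicate numbers came from the sample titles. Values were transformed to log2(RPM + 1), a scale that compresses low values, and tested with limma 3.58.1 in R 4.3.3 (lmFit and eBayes, two-sided, no covariate). All 49 miRNAs reached 1 RPM in at least 1 library and were tested, and adjusted p-values (Benjamini-Hochberg) were taken over the 49. The fit was tested on simulated data in which most miRNAs did not change, unlike this list, so that test does not speak for the calls here. The arm share was compared with an exact two-sided permutation test (scipy 1.17.1). The exact interval of a ratio of summed reads is conditional on their sum. The files give no coordinates, so loci were found by name in GENCODE M21 and RefSeq on GRCm38. The members and the miRNA lists were chosen with earlier results of these data known. The miRNAs named were all members, up to 8 arms of the lists in order of mean RPM, and the 2 nearest miRNAs of each member. Alternatives were pseudocounts of 0.1 and 10 RPM, rescaling the listed values in 3 ways, keeping all values or those averaging 10 RPM or more, a mean-variance trend, a replicate block and leaving out each library.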

Additional observations from a re-analysis of the deposited data

How the results depend on the processing

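Log2 fold changes of the members across all alternatives ran from 1.06 to 3.14 for miR-193b-3p, 0.16 to 2.80 for miR-193b-5p, 0.46 to 2.57 for miR-455-3p and 0.37 to 2.34 for miR-33-5p. Leaving out a library in turn gave 1.55 to 1.97, 0.94 to 1.20, 1.38 to 1.58 and 1.15 to 1.46. A mean of at least 10 RPM left miR-193b-3p as the only member, and 27 of the 49 listed miRNAs lie under it. Median-of-ratios scaling gave ratios of 8.72, 19.6, 9.46 and 8.29. Replicate numbers occur in both groups, but deviations of same-numbered libraries correlated by 0.00468, 0.223 and 0.0563, so the numbers were not taken as pairs. With the replicate block the log2 fold changes were the same, 1.82, 1.05, 1.49 and 1.31 (limma adjusted p = 0.00192, 0.00259, 0.00138 and 0.00191), the counts of calls did not move, the arm share difference stayed at -3.44 points, and not every library correlated best with its own number.

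The count of upregulated miRNAs was 8 under both rules with a mean of at least 10 RPM, and 5 past the fold cut-off with a pseudocount of 10 RPM. By the adjusted p-value, 35 miRNAs were downregulated as reported, 14 with a mean of at least 10 RPM, 12 with median of ratios, 10 with the listed total and 12 with quantile normalization. Past the fold cut-off they numbered 28 as reported, 12 with a pseudocount of 10 RPM, 13 with a mean of at least 10 RPM, and 11, 10 and 9 with those rescalings, which moved the median log2 fold change by 0.99, 1.23 and 0.92. Without a library these 4 counts were 14, 34 to 35, 12 to 14 and 22 to 29.

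The arm comparison changed sign as a log2 ratio of the arms with 1 RPM added to each (0.78, exact permutation p = 0.1), because the added value exceeds the 5p level in the WT group. As a share it ran from -5.11 to -2.33 points without a library. The brown-fat median was -0.028 with median of ratios and 0.27 with the listed total, and the lipid median -1.25 and -1.16, or -3.35 with a pseudocount of 0.1 RPM. Over all listed miRNAs the median under these 3 settings was -0.083, 0.157 and -1.21. The list medians were not rerun without a library. Depth limits miR-193b-5p most, and of the other members every WT library held between 7 and 87 reads.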
